A study of Mus musculus with 16 samples.

Results

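Kidney was profiled in 2 of the 16 CaptureSeq libraries of the study, 1 for each probe design, and both were compared with the 6 libraries of heart, liver and a tissue labelled testis. The members are the sample columns that carry the kidney label. Targeted sequencing pulls cDNA down with probes before sequencing. One design held probes for lncRNA loci and the other for annotated splice junctions. All 8 libraries came from adult C57BL/6J mice with no genetic change or treatment given in the labels. For each organ, RNA of 2 pieces from the same mouse (5 µg each) was depleted of ribosomal RNA and then pooled, so that each library rests on 1 animal. The 4 nonbrain libraries of a design were captured together as 1 hybridization pool, after 10 cycles of amplification (11 for liver), and amplified for 17 cycles afterwards. The ERCC spike-in was mix 2 in kidney and in the tissue labelled testis and mix 1 in heart and liver. The libraries held 8930236 to 21113108 fragments with lncRNA probes and 14309220 to 43889296 with splice junction probes, of which 25.2% to 45.6% and 7.81% to 15.0% were spike-in. With 1 library per tissue and design there are no replicates, hence no p-value is given. The labels do not say whether both designs used the same RNA, so agreement between them is not a measure of the spread between mice. In bulk tissue, fewer cells of a type and less RNA per cell cannot be told apart.

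The nephron, the working unit of the kidney, starts with the glomerulus, where podocytes hold back plasma proteins. The proximal tubule then takes up phosphate, glucose, amino acids and filtered protein through its brush border, and secretes organic anions and drugs. The thick ascending limb, the distal convoluted tubule and the collecting duct adjust salt, calcium, acid and water under hormonal control, each with its own set of transporters.

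The 4 kidney markers matched the label in both designs. Values are normalized fragments summed over the transcripts of a gene model. Umod, the uromodulin of the thick ascending limb, was at 2293 in kidney against 14.3, 20.6 and 4.56 in heart, liver and the tissue labelled testis in the lncRNA design, and at 76182 against 1474, 1637 and 687 in the splice junction design. Slc34a1, the sodium-phosphate cotransporter of the proximal tubule, was at 3456 against 33.4, 25.7 and 12.5 and at 137123 against 2907, 3333 and 1350.0 in the same order of tissues and designs. Kidney stood above every comparison library for both genes. Slc12a1, the sodium-potassium-chloride cotransporter that loop diuretics block, reached 1125 against 9.54, 2.57 and 1.14 in the lncRNA design, and 152732 against 2454, 2969 and 1217 with splice junction probes. Cdh16, a cadherin of renal epithelium, reached 1054 against 0, 5.15 and 2.28 and 75032 against 1369.9, 1735 and 697. The kidney values rest on 1357 and 113965 fragments for Umod, with exact Poisson 95% intervals of 1286 to 1431 and 113304 to 114629 that cover counting error only.

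Marker genes did not match the label of the testis libraries. The sperm chromatin genes Tnp1 and Tnp2 were at 0 in both of them and Prm1 was at 10.3 and 0.533, whereas 7 of 8 keratinocyte markers in the lncRNA design and 8 of 8 in the splice junction design were highest there, with Krt14 at 51523 against 872 in kidney. Heart and liver held their own markers. Myl2, a ventricular myosin light chain, was at 461835 in the splice junction library of heart, and Fgb, a fibrinogen chain, was at 113685 in that of liver. Counts over all models are therefore also given without the library labelled testis.

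A gene model was called kidney-high where log2(value + 1) in kidney lay at least 2 above the mean of the 3 comparison tissues, a 4-fold difference, and above each of them, in both designs. Kidney-low is the mirror image. Of 59205 gene models in the assembly, 10811 averaged 10 or more over the 4 nonbrain tissues in each design and were tested. Of these, 651 (6.02%) were kidney-high and 275 (2.54%) were kidney-low. The median difference of all tested gene models was -0.07 in both designs. Protein-coding models were kidney-high in 544 of 9912 cases (5.49%), GENCODE lncRNA models in 75 of 647 (11.6%) and models without a GENCODE gene in 22 of 194 (11.3%). The remaining biotypes, pseudogenes and immunoglobulin segments among them, gave 10 of 58 (17.2%). Kidney-low shares in the same order were 2.28%, 6.49%, 3.09% and 1.72%. A model takes the biotype of the GENCODE gene that shares most exon bases with it. Some lncRNA models, such as Gm6999 with Olfm4 and Tmem61 with Bsnd, therefore also hold a coding gene. This applies to all counts of lncRNA models given here. The filter takes the mean with kidney included, so a model may pass it through kidney alone, and these shares describe the called set only. Without the library labelled testis 729 models were kidney-high, 599 of them among the 651, and 402 were kidney-low, 198 of them among the 275.

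The designs called overlapping sets. Among models tested in both, 815 met the kidney-high rule with lncRNA probes and 776 with splice junction probes, and the 651 in common are 79.9% and 83.9% of these. For kidney-low the designs called 502 and 533, and the 275 in common are 54.8% and 51.6%. With its own filter only, the lncRNA design called 7.74% of 24667 models kidney-high and 4.07% kidney-low, and the splice junction design 8.46% and 5.85% of 15151. A single model, Lrp2, was kidney-high in one design and kidney-low in the other. Just inside the kidney-high threshold lay Ppp1r21, with differences of 2.01 and 2.08, and Nceh1, with 2.02 and 2.40. Just outside lay Ddr1, with 3.36 and just under 2.00, and Tsc22d1, with 2.01 and 1.99. Nceh1 had kidney at 1560.2 and heart at 1509 in the splice junction design, so that a model just inside can differ little from a single comparison tissue.

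**Figure D1:**
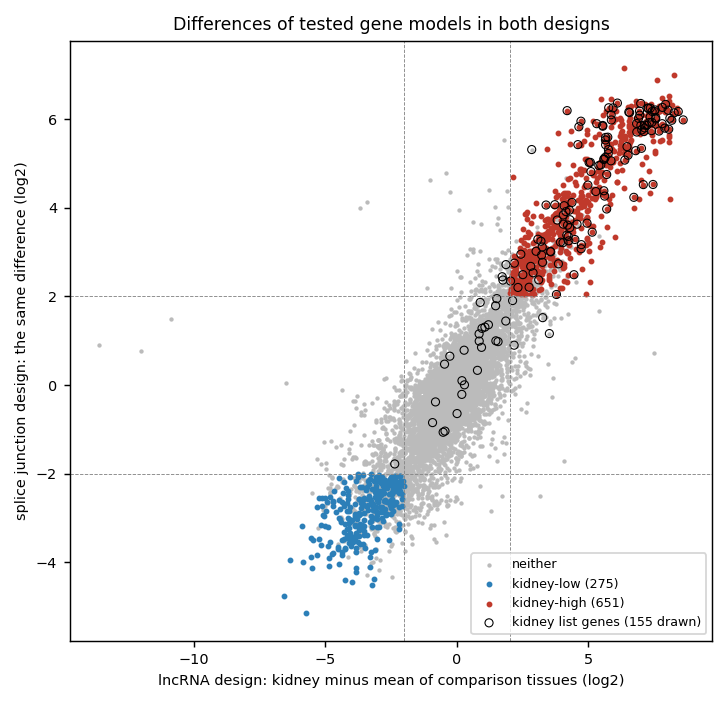
Each point is a tested gene model, with the kidney difference (log2) in the lncRNA design on the horizontal axis and in the splice junction design on the vertical axis. Red points are the 651 kidney-high and blue points the 275 kidney-low models, and black circles are genes of the 14 kidney lists. Lrp2 lies below the drawn range at -14.36. The splice junction differences of the red points end in a band near 6, whereas those of the lncRNA design reach 8.60.

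The 14 lists of nephron and kidney genes hold 208 gene models, of which 156 were tested and 108 (69.2%) were kidney-high, beside 6.02% of all tested models. None was kidney-low, but without the library labelled testis 1 model of the podocyte list and 1 of the metabolism list were. The lists were chosen from knowledge of the kidney, and many of their genes are defined by being high there.

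**Figure D2:**
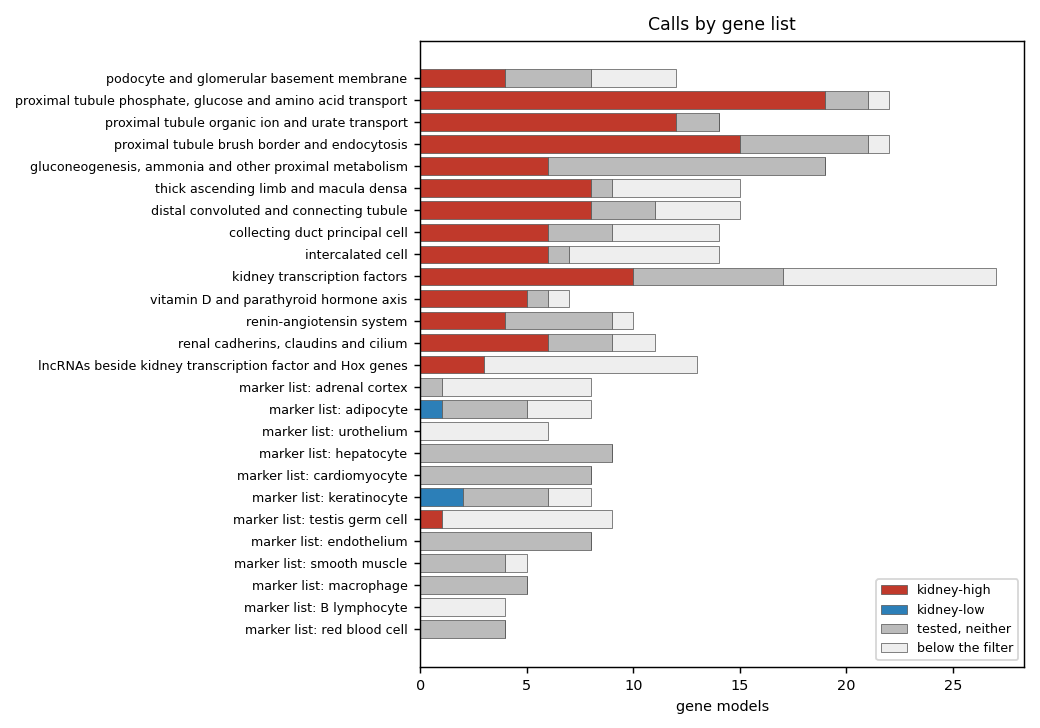
Bars count gene models per list, with kidney-high in red, kidney-low in blue, tested models that met neither rule in dark grey and models below the filter in light grey. The 14 kidney lists stand at the top and the 12 marker lists of other cell types below them.

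Genes of podocytes and of the glomerular basement membrane were kidney-high in part. Nphs1, the nephrin of the slit diaphragm, was at 1027 in kidney against 0, 7.72 and 5.7 in the lncRNA design and at 1123 against 25.7, 29.6 and 9.6 with splice junction probes. Col4a3 and Col4a4, collagen chains of the glomerular basement membrane, differed by 5.58 and 5.69 (log2) in the lncRNA design and by 5.10 and 4.75 with splice junction probes. Together with Npnt, which encodes nephronectin, these were the 4 kidney-high models among 8 tested of 12. The transcription factor gene Wt1 was below the filter, and its splice junction value in kidney (341) was close to that in heart (303). Podxl, which encodes the podocyte surface sialomucin podocalyxin and is also made by endothelium, was at 2949.9 in kidney and 3426 in heart.

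Transporters of the proximal tubule gave the most kidney-high models of any list. Of 22 genes for phosphate, glucose and amino acid transport, 21 were tested and 19 were kidney-high, with median differences of 6.79 and 5.71 in the lncRNA and splice junction designs beside -0.07 over all tested models. Slc5a2, the glucose cotransporter SGLT2 that gliflozins block, was at 372 against 9.54, 0 and 0 and at 34409.9 against 695, 824 and 312. Slc6a19, the main neutral amino acid transporter of the brush border, was at 30927 against 537, 717 and 1925 in the splice junction design. Slc6a20b, an imino acid carrier, differed by 7.68 and 5.73. The cystine transporter subunits Slc3a1 and Slc7a9 were both kidney-high, with splice junction values of 84273 and 18727. For Slc3a1 liver held 9106, the highest of the comparison tissues. Slc7a13, a kidney amino acid carrier that partners Slc3a1, differed by 7.93 and 6.33. The remaining pair, Slc2a2 and Slc26a1, were higher in liver than in kidney. Slc2a2, the GLUT2 glucose carrier, was at 11588 in kidney and 41178 in liver, and Slc26a1, a sulfate anion exchanger, was at 5413 and 10084.

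**Figure D3:**
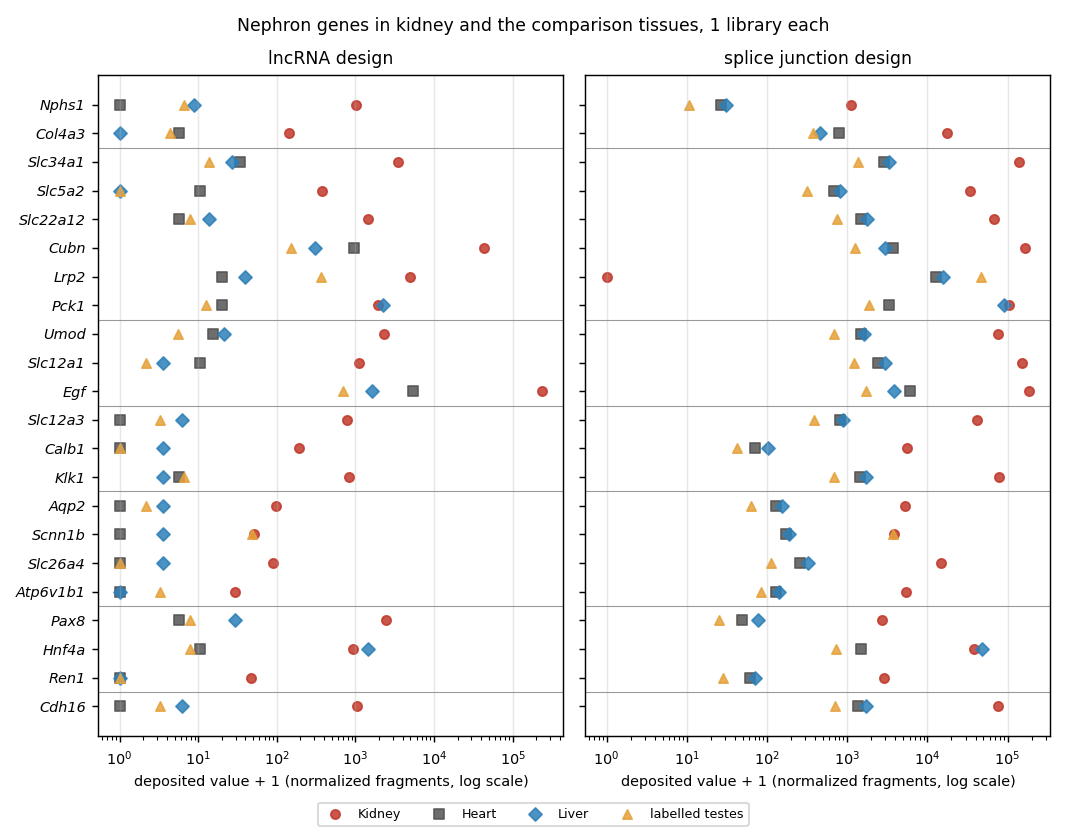
Deposited values plus 1 (log axis) of 22 genes in the 4 nonbrain tissues are shown for each design, 1 library a point, with horizontal lines between nephron segments. Kidney (red) stands apart from the other tissues for most genes, Pck1 and Hnf4a have liver beside kidney, and Lrp2 is listed at 0 in kidney in the splice junction design.

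Genes for organic ions and urate gave 12 kidney-high models among 14 tested. Slc22a6 and Slc22a8, the organic anion transporters OAT1 and OAT3, differed by 7.14 and 6.83 in the lncRNA design and by 5.87 and 5.90 with splice junction probes. Slc22a12, the urate transporter URAT1, was at 67427 against 1482, 1777 and 756. Slc22a2, the organic cation transporter OCT2, had no fragment in any comparison library of the lncRNA design against 339.6 in kidney, and with a floor of 3 fragments per library it was at least 23.7-fold higher. Its splice junction values were 49779 against 818, 981 and 406. Liver shared some of this list. The model of Slco1a1, which also holds Slco1a6, was at 165123 in kidney and 85582 in liver, and Abcg2, an efflux pump for urate and drugs, was at 29802 and 12357. Slc17a3, a phosphate and urate carrier, was higher in liver (9195) than in kidney (1107) in the lncRNA design and the reverse in the splice junction design (9003 and 76526). Abcc4, an efflux pump of wide expression, met neither rule.

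Genes of the brush border and of protein uptake gave 15 kidney-high models among 21 tested. Cubn, which encodes the endocytic receptor cubilin, was at 43618 against 954, 304 and 150.4 in the lncRNA design and at 164190.0 against 3747, 2990.3 and 1241 with splice junction probes, and Amn, which anchors cubilin in the membrane, differed by 5.07 and 5.03. Lrp2 encodes megalin, the partner of cubilin. It was at 4909 in kidney against 19.1, 38.6 and 361 in the lncRNA design, but was listed at 0 in kidney in the splice junction design, where heart, liver and the tissue labelled testis held 12813, 15674 and 46589.6. Lrp2 was the only model listed at 0 in a kidney library that had at least 100 fragments in each of the 3 comparison libraries of the same design. A 0 of this kind may be a failed estimate, and no direction is drawn from it. The meprin genes Mep1a and Mep1b and the peptidase genes Folh1 and Treh were kidney-high, with Mep1a at 186092 against 3059, 3692 and 1507. Cltrn, which encodes the collectrin needed for amino acid transporters to reach the surface, differed by 7.81 and 6.27. Clcn5, the endosomal chloride-proton exchanger mutated in Dent disease, was at 46772 against 2347, 3858 and 2523 in the lncRNA design. Several ectopeptidases of the brush border were not particular to kidney by the rule. In the splice junction design Anpep was at 8455 in kidney and 9158 in liver, Dpp4 at 10294 and 28258, and Enpep at 15018 and 17483.

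All 19 metabolic genes of the proximal tubule were tested and 6 were kidney-high, namely Gatm, Miox, Dao, Hao2, Acsm2 and Acsm3. Miox, which opens the ring of myo-inositol, was at 1004 against 0, 10.3 and 3.42 in the lncRNA design and at 43822 against 784, 947 and 411 with splice junction probes. Gatm, the first enzyme of creatine synthesis, was at 28870.0 against 482, 975 and 589 and at 5287 against 144, 244 and 134. Pck1, the regulated enzyme of gluconeogenesis, was at 1952 in kidney and 2254 in liver in the lncRNA design and at 103127 and 91076 with splice junction probes, so the order of the organs changed with the design. G6pc, which releases free glucose, met neither rule and was at 11079.8 in kidney and 10848 in liver. Fbp1 and Ass1 also met neither rule with kidney and liver both above heart and the tissue labelled testis. Without the liver libraries the kidney-high count over all models was 922, of which 601 were among the 651. Hpd, a tyrosine catabolism enzyme, was at 3128 in kidney against 147608 in liver in the splice junction design.

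The thick ascending limb list gave 8 kidney-high models among 9 tested of 15. Besides Umod and Slc12a1 these included the potassium channel gene Kcnj1, the channel subunit gene Bsnd, whose model is named Tmem61 and also holds that gene, the tight junction gene Cldn10, and Egf. Egf, which encodes the precursor of epidermal growth factor, was at 239068 in kidney against 5424, 1621 and 702 in the lncRNA design and at 186547 against 6078, 3893 and 1724 with splice junction probes. Casr, the calcium-sensing receptor, and Cldn16, a magnesium-pore claudin, were below the filter through the lncRNA design, in which kidney held 33.8 and 1.69. Their splice junction values were 2789.5 against 48.1, 54.8 and 27.2 and 974 against 20.9, 12.2 and 5.86. The macula densa genes Nos1 and Ptgs2 were below the filter. Cldn14, an inhibitor of the calcium pathway between cells, was lower in kidney (31.4) than in liver (948).

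In the distal convoluted and connecting tubule 8 of 11 tested models were kidney-high. Slc12a3, the thiazide-sensitive cotransporter, was at 781 against 0, 5.15 and 2.28 and at 41448 against 819.7, 897 and 386. The calcium-binding protein genes Calb1 and S100g differed by 6.98 and 7.35 in the lncRNA design and by 6.36 and 6.25 with splice junction probes. Kl, the co-receptor of the phosphate hormone FGF23, was at 24464 against 414, 474 and 194, and Klk1, tissue kallikrein, at 78451 against 1426, 1713 and 676. Wnk4, a kinase that regulates Slc12a3, was kidney-high with 1378 against 302, 92.2 and 50.1, whereas Wnk1 was higher in heart (5361) than in kidney (3235). The calcium channel gene Trpv5 was below the filter, with 13.5 in the lncRNA library and 1229 against 17.6, 31.3 and 9.6 in the splice junction libraries.

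Collecting duct genes split between genes high in kidney alone and genes that the tissue labelled testis also held. Aqp2, the water channel that vasopressin moves to the membrane, was at 98 against 0, 2.57 and 1.14 and at 5223 against 128, 155 and 62.4. Aqp3, the basolateral water channel, differed by 5.64 and 5.53. Subunits of the epithelial sodium channel were also present in the tissue labelled testis. Scnn1b was at 3808 in kidney and 3758 in the tissue labelled testis in the splice junction design, and at 50.7 and 46.7 in the lncRNA design. Scnn1a was at 2530.1 and 1924 in the splice junction design. Both were kidney-high. Principal cells gave 6 kidney-high models among 9 tested of 14. Intercalated cells, which secrete acid or base, gave 6 among 7 tested of 14. Slc26a4, the chloride-bicarbonate exchanger pendrin, was at 14598 against 257, 328 and 112, and Rhcg, an ammonia channel, at 4931 against 94.6, 104 and 46.4. Atp6v0a4, a proton pump subunit whose model is named D630045J12Rik and also holds that gene, was at 31019 in kidney and 22256 in the tissue labelled testis. Another pump subunit gene, Atp6v1c2, was higher in the tissue labelled testis (17225) than in kidney (2583). Foxi1, the transcription factor gene of intercalated cells, was below the filter with 13.5 and 12 in kidney and no more than 0.533 elsewhere.

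Transcription factor genes gave 10 kidney-high models among 17 tested of 27, while 7 met neither rule and 10 were below the filter. Pax8 was at 2443 against 4.77, 28.3 and 6.84 in the lncRNA design and at 2744 against 48.1, 76.6 and 24.5 with splice junction probes. Hnf4a, a nuclear receptor gene, was higher in liver (47980.1) than in kidney (38319.8). Pou3f3, a factor of the loop of Henle, was at 5509 against 28.6, 30.9 and 31.9 in the lncRNA design and at 48.8 against 1.6, 0.87 and 1.07 with splice junction probes. Esrrg, an orphan nuclear receptor gene, was kidney-high with differences of 3.55 and 3.02, although heart was close to kidney, at 1465 against 1525. Of 13 lncRNA models beside kidney factor and Hox genes, 3 were tested and all 3 were kidney-high. Emx2os, the antisense partner of Emx2, was at 4706 against 19.1, 20.6 and 203 in the lncRNA design, and Emx2 differed by 6.38 and 5.08. Hoxb5os was at 1768 against 14.3, 20.6 and 5.7, and Hoxb3os at 1494 against 100.2, 74.6 and 90. Lhx1os and Hotairm1 were near 0 in the splice junction design, while the lncRNA design held them with 2779.7 against 33.4, 28.3 and 16 and 2048 against 162, 208 and 68.4, so both were below the filter.

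Endocrine genes of the kidney were also compared. In the splice junction design Cyp24a1, which inactivates vitamin D, was at 4945 against 89.8, 105 and 30.9. Vdr, the vitamin D receptor, was at 7889 there against 259.9, 287 and 3268, so the tissue labelled testis was the nearer one for Vdr. Cyp27b1, which makes active vitamin D, was below the filter. The vitamin D and parathyroid hormone list gave 5 kidney-high models among 6 tested of 7, and the renin-angiotensin list 4 among 9 tested of 10. Ren1, which encodes renin, was at 45.6 against 0, 0 and 0 and at 2889 against 61, 69.6 and 27.2, and Ace, which makes angiotensin II, was at 31754 against 10036, 453 and 8106 and at 8730.1 against 2786, 292 and 2559.8. Agt, the precursor angiotensinogen, was highest in liver, at 31246 against 2253 in kidney in the splice junction design. Among cadherins, claudins and cilium genes 6 of 9 tested models of 11 were kidney-high. Pkhd1, mutated in recessive polycystic kidney disease, was at 62712 against 1099, 5658 and 547, whereas Pkd1, mutated in most dominant polycystic disease, was at 522 against 909.5, 452 and 535 and met neither rule. Cdh6 was read almost only in the lncRNA design, at 1311 against 291, 201 and 38.7.

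The 15 kidney-high models with a symbol for which the smaller of the 2 differences was largest were Kcnj16, Kap, Lrrc19, Gm45645, Gm6999, D630029K05Rik, Calb1, Arhgef38, Slc7a13, Slc22a22, Tmigd1, Cyp2j13, Tinag, Gm19950 and Serpina1f. Most of these smaller differences are splice junction differences near 6, where many models crowd, so neither the order nor membership of this set sets them apart from others in that band. Kcnj16, a potassium channel subunit, was at 598 against 0, 2.57 and 1.14 in the lncRNA design and at 7877 against 57.7, 114 and 33.6 with splice junction probes. Kap, the kidney androgen-regulated protein of the proximal tubule, was at 4407 against 14.3, 30.9 and 7.98 and at 1672 against 27.3, 24.4 and 7.46, and had no fragment in any brain library. Cyp2j13, a cytochrome P450, was at 50043 against 762, 889 and 365, and Tinag, the tubulointerstitial nephritis antigen of the tubular basement membrane, at 22662 against 358, 423 and 152. For 30 kidney-high models all 3 comparison libraries were at 0 in the lncRNA design, Slc22a22 and Tinag among them, and their kidney values were at least 11.7-fold and 6.85-fold higher by the floor of 3 fragments. No kidney-high model was at 0 in all 3 comparison libraries of the splice junction design.

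At their lowest, the shares of kidney fragments in the comparison libraries lay in a narrow range above 0. Over the 300 kidney-high models with at least 5000 kidney fragments in the splice junction design, the 5th to 25th percentiles of fragments relative to kidney were 0.635% to 0.792% in heart, 1.41% to 1.84% in liver and 0.948% to 1.22% in the tissue labelled testis. Their medians were 1.34%, 3.93% and 2.99% and their 75th percentiles 3.84%, 14.9% and 11.3%. None of the 300 models was at 0 in any of the 3 libraries. In the brain libraries, which were captured in another pool, 20 to 26 of the 300 models were at 0 and the 10th percentile was 0.00201% to 0.00785%. In the lncRNA design the 5th to 25th percentiles over 57 models were 0.159% to 0.225% in heart, 0.398% to 0.510% in liver and 0.428% to 0.563% in the tissue labelled testis. The reverse was seen as well. Over the 327 models with at least 5000 heart fragments in the splice junction design, the 5th and 10th percentiles of kidney fragments relative to heart were 0.900% and 1.03%, and over 937 such models of liver they were 1.04% and 1.23%. Of the 651 kidney-high models, 139 had a splice junction difference between 5.5 and 6.5 and 4 had a larger one, up to 7.16. No order is read from differences near 6 in that design. Comparison values of about this share of kidney, as for Umod and Slc34a1, are not read as expression in those tissues, nor are kidney values of this size in models that are high in heart or liver. The cause of the share was not tested.

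**Figure D4:**
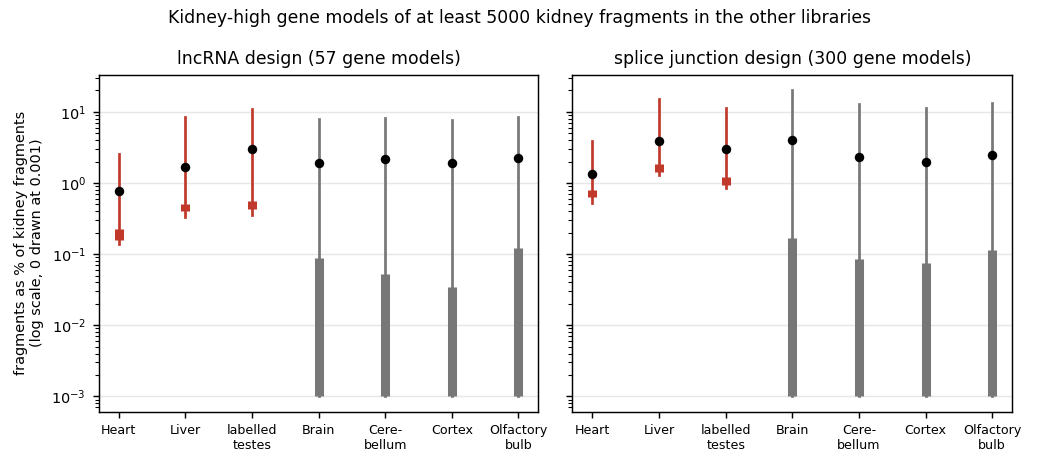
For kidney-high models with at least 5000 kidney fragments, fragments of each other library are given as a percentage of kidney fragments (log axis, values of 0 drawn at 0.001). Thin lines span the 1st to 75th percentiles, thick bars the 5th to 25th, and dots mark medians. The 3 libraries captured with kidney (red) have narrow thick bars, and the 4 brain libraries (grey) reach the bottom of the axis.

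LncRNA models were kidney-high in 75 cases. The 10 with the largest smaller difference, with the same limit on their order, were Gm45645, Gm6999, D630029K05Rik, Gm19950, Gm15396, Gm10732, 3110099E03Rik, 0610006L08Rik, 4930486I03Rik and Gm13415. Gm19950 (chr7:119611465-119642346, minus strand) was at 19515 against 124, 142 and 49 in the lncRNA design and at 1957 against 36.9, 37.4 and 9.6 with splice junction probes. It had no fragment in any of the 8 brain libraries. 0610006L08Rik (chr7:74794026-74853865, minus strand) was at 14579.5 against 52.5, 87.5 and 47.9 in the lncRNA design. Gm13415 (chr2:24440418-24486855, plus strand) has Pax8 as its nearest coding neighbour, with the start of that model 35181 bases away on the opposite strand, and was at 7513 against 52.5, 180.1 and 42.2. Gm45645 (chr14:27839661-27876194, minus strand) was at 3555 against 9.54, 23.2 and 7.98, and the model Gm6999 also holds Gm49542 and the coding gene Olfm4, so its value may stem from either. Coordinates are on GRCm38.

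Models outside GENCODE M21 were kidney-high in 22 cases, of which 11 were spliced. The spliced one with the largest smaller difference lies at chr14:27837984-27869935 on the plus strand, over most of the span of Gm45645 on the other strand, and was at 7371 against 38.2, 64.3 and 20.5 in the lncRNA design and at 521 against 1.6, 6.96 and 3.2 with splice junction probes. The next, at chr4:13609772-13671698 on the minus strand, was at 10894 against 52.5, 56.6 and 36.5 and had no fragment in 7 of the 8 brain libraries. The others of the first 5 lie at chr1:132676958-132693026, chr19:38348389-38349716 and chr17:46350420-46356713, with kidney values of 2574, 4104 and 870.2 in the lncRNA design and no comparison library above 51.5. Among spliced kidney-high lncRNA models, 32 had a tested coding model whose start lay within 50 kb and nearest, and 14 of these neighbours (43.8%) were kidney-high themselves. Over all tested spliced lncRNA models the count was 24 of 315 (7.62%), the 14 included. Emx2os with Emx2, Gm31641 with Kcnj15 and Gm11615 with Wnk4 were such pairs. Neighbours below the filter were left out, which kept 32 of 47 within 50 kb for the kidney-high models and 315 of 446 for all tested ones. The filter includes kidney, so a neighbour may pass it through kidney alone. The gap between the 2 shares follows in part from this, and they describe the called set only.

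Kidney-low models were fewer, and the leading ones were Homer2, Bche, Aox1, Apoc1, Kbtbd12, Lyve1, Cd163, 6430710C18Rik, Mmp15 and Gpr157. Homer2, a scaffold protein of signalling complexes, was at 164 in kidney against 21342, 14805 and 2139 in the lncRNA design and at 16 against 1499.8, 836 and 175 with splice junction probes. Bche, butyrylcholinesterase, was at 0 against 38.2, 247 and 88.9 and at 77.5 against 1286, 4978 and 1509. Lyve1, a receptor of lymphatic and sinusoidal endothelium, was at 38.8 against 1275, 786 and 277, and Cd163, the haemoglobin scavenger receptor of tissue macrophages, at 167 against 3768, 4124 and 3206. These are splice junction values. In the lncRNA design both calls rested on few fragments, 0 against 8, 7 and 12 for Lyve1 and 1 against 8, 15 and 44 for Cd163. The rule itself puts kidney below all 3 other libraries for each kidney-low model. Apoc1, an apolipoprotein made by liver, was at 3.34 in kidney against 6.42, 735 and 78.4 in the splice junction design, so heart was near kidney. The kidney and heart values of Apoc1 rested on 5 and 4 fragments there, and on 1 and 3 in the lncRNA design, so their order is not read. Leaving out heart, liver or the library labelled testis gave 450, 429 and 402 kidney-low models, of which 226, 207 and 198 were among the 275.

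Markers of other cell types were counted beside these results. No model of the adrenal cortex, adipocyte, urothelium, hepatocyte, cardiomyocyte, keratinocyte, endothelium, smooth muscle, macrophage, B lymphocyte or red blood cell lists was kidney-high. Over all tested models the share was 6.02%. In the urothelium and B lymphocyte lists 0 models were tested, and in the adrenal cortex list 1 of 8, so these 3 lists could hardly give a call. The adrenal gland lies beside the kidney, and its defining enzyme gene Cyp11b1 was at 0 in both kidney libraries, as was Cyp11b2. Star was at 1681 and 54.1 in kidney and at similar values in the other tissues, and its model also holds Lsm1. All 9 tested hepatocyte models and all 8 cardiomyocyte models met neither rule, and their summed values in kidney were 29730 and 15680 in the splice junction design against 1116090 in liver and 2087570 in heart. Without the library labelled testis 5 hepatocyte, 4 cardiomyocyte and 1 smooth muscle models were kidney-low. The macrophage list had a median difference of -1.59 and -1.71 with no model called. In these lists 3 models were kidney-low, beside 2.54% of all tested models. They were Cidea (1 of 5 tested in the adipocyte list) and Krt5 and Trp63 (2 of 6 tested in the keratinocyte list). The last pair was lost without the library labelled testis. The germ cell list had 1 tested model of 9, Sycp3, and it was kidney-high. It was at 109892 against 54341, 16840.4 and 2687 in the lncRNA design, and 441 against 93, 60 and 22.9 with splice junction probes. It was not called without the library labelled testis. Of the 9 models of that list, 7 were at 0 in the lncRNA library of kidney. Which transcripts of the Sycp3 model carry its value was not tested, so it is not read as germ cell expression.

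Promoters of the kidney-high coding genes were searched for 3 motifs, of which 2 are given here. RefSeq promoter windows (GRCm38.p6, 250 bases before to 50 after a start) were matched by symbol for 420 symbols of the 544 kidney-high coding models, with 552 windows. The HNF4 motif CAAAGTCCA, searched on both strands without mismatch, was in 8 windows (1.45%), beside 0.482% of 10161 windows of tested coding genes and 0.475% of all 32851 windows. The direct repeat of AGGTCA with an A between the copies, on both strands with up to 2 mismatches, was in 10 (1.81%), beside 1.32% and 1.46%. With up to 1 mismatch it was in 0 of the 552 windows, beside 0.148% and 0.198%. The letters of these motifs overlap in part. A match describes letters and is not evidence that a factor binds. The 3 windows with an HNF4 match that belong to genes of the proximal tubule lists are shown to place the motif, each 29 bases from 5′ to 3′ on the strand of the gene, with the match in capitals. In Treh the match is on the other strand.
Slc3a1, chr17:85028298-85028326, plus strand: cttggctggaCAAAGTCCAgccatgatta
Pdzk1, chr3:96830069-96830097, plus strand: aatctttgtcCAAAGTCCAgtgagttcca
Treh, chr9:44673152-44673180, plus strand: cctcatagccTGGACTTTGgctgacctgg
These genes, which encode a cystine transporter subunit, a brush border scaffold and trehalase, differed by 5.29, 5.42 and 4.95 in the splice junction design.

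Isoform shares were compared for 1046 gene models with at least 100 fragments in each of the 8 libraries. No transcript of 8568 took at least 50 percentage points more of its gene in kidney than in each comparison tissue in both designs. The largest difference was in Dab2, at 42.9 points, and the next was in Recql5, at 13.7. The rest of the first 10, in Macf1, Tpd52, Trio, Plekha2, Eif5, Hadhb, Tns1 and Rapgef4, were smaller still.

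Dab2 encodes an adaptor that links megalin and cubilin to clathrin in the proximal tubule. Its model was kidney-high, at 23160.2 against 2194, 816 and 925 and at 16109 against 2169, 1042 and 1142. The transcript that dominated in kidney lacks an exon of 654 nt (chr15:6429296-6429949, plus strand) that 3 GENCODE Dab2 transcripts hold entirely as coding sequence, 218 codons long. Over the transcripts that span this position, those with the exon took 1.36% of the value in kidney against 54.8%, 46.7% and 47.7% in heart, liver and the tissue labelled testis in the lncRNA design. In the splice junction design they took 5.84% against 82.5%, 68.9% and 73.3%. In the 4 brain tissues the share was 45.2% to 65.7% and 81.2% to 89.4%. Kidney was the lowest of the 8 tissues in both designs. Dab2 was picked for the largest kidney difference in isoform share, so its gap to heart, liver and the tissue labelled testis follows from that choice. The brain libraries were not used in it. Shares of single transcripts are the estimates of the authors' software, with no junction counts behind them here.

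The junctions that tell the forms apart are shown with the last 15 bases of the first exon in lower case and the first 15 of the next in capitals, from GENCODE M21 transcripts on GRCm38.
Exon skipped, chr15:6424683-6424697 joined to chr15:6430954-6430968: ctaaatagtccaacaTCTTCAGCAAACGAC
Exon joined at its start, chr15:6424683-6424697 joined to chr15:6429296-6429310: ctaaatagtccaacaGAAAGCAAAGATATC
Exon joined at its end, chr15:6429935-6429949 joined to chr15:6430954-6430968: agaaggactgctaagTCTTCAGCAAACGAC

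**Figure D5:**
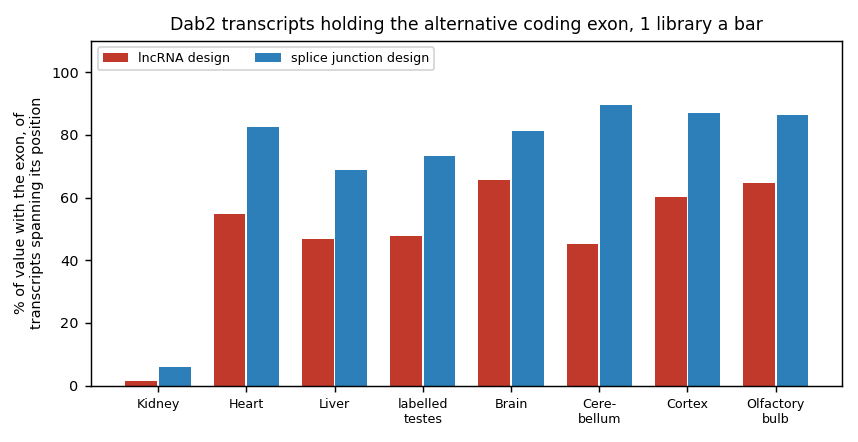
Bars give the percentage of the Dab2 value, over transcripts that span the position, that falls to transcripts holding the 654-nt exon, with 1 library a bar, red for the lncRNA design and blue for the splice junction design. The kidney bars stand at 1.36% and 5.84%, and the lowest of the others is 45.2%.

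The brain libraries were not used to choose the kidney-high models. They were extracted by another method, captured in another pool and amplified for another number of cycles, which cannot be told apart from tissue. Of the 651 kidney-high models, 539 (82.8%) had a kidney value above each of the 4 brain libraries in both designs, beside 32.9% of the 10811 tested models. The kidney-high models were chosen by their kidney values, so a share above that of all tested models follows in part from the choice. The shares were 65 of 75 among lncRNA models and 20 of 22 among models without a GENCODE gene. The other 112 were at or below a brain tissue in at least 1 design. Those with the highest brain value relative to kidney were Pex5l, Adcy1, 6530403H02Rik, Pgr and Pclo. Pex5l, which regulates pacemaker channels, was at 72.2 in kidney against 7993, 3122, 11164 and 2625 in brain, cerebellum, cortex and olfactory bulb in the splice junction design. Pclo, a scaffold of the presynaptic zone, was at 54.8 against 1143, 1989.8, 1728 and 1092. Calb1, which distal tubule cells share with Purkinje cells, was at 5556 in kidney and 15687 in cerebellum. Kcnj16 was at 7877 in kidney against 532, 347, 344 and 564, and the kidney value was the highest.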

How the data were processed

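Per the labels, RNA of adult C57BL/6J organs was captured with lncRNA or splice junction probes. The submitters' processing notes name TopHat2, Cufflinks 2.2.1, Cuffnorm 2.2.1 and GRCm38. The authors deposited normalized fragment signal per transcript, scaled by 1 factor per library. Transcript values were summed per gene_id. Sums up to 20 steps came out whole within 0.1 step in 100% of cases, which gave fragments per library. Models were named by GENCODE M21. Differences are log2(value + 1) in kidney minus the mean of heart, liver and the tissue labelled testis, for models that averaged 10 or more in each design. Fold changes on this scale understate low genes. Calls need a difference of 2 in both designs. With 1 library per group no test was run, and scripts were tested on simulated data. Poisson intervals (95%) and the floor of 3 fragments cover counting error only, since PCR fragments without molecular identifiers are not independent molecules. Isoform shares needed 100 fragments per library.

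Named genes were the 4 markers, list members, the 15 kidney-high models with a symbol and 10 kidney-low models that led by the smaller of the 2 differences, the 10 leading lncRNA and 5 leading spliced unannotated models, 2 models on each side of the threshold, the 10 leading transcripts and the 5 kidney-high models highest in brain relative to kidney. The members, lists and motifs were chosen with earlier results of these data known. Results of some list genes and of 1 motif are not reported here. Alternatives were other pseudocounts, filters, thresholds, scalings, left-out tissues and single designs. Scripts ran in Python 3.11.15 with pandas 2.3.3, SciPy 1.17.1 and NumPy 2.4.6.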

Additional observations from a re-analysis of the deposited data

Results flagged for a closer look

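Lrp2, the megalin gene (chr2:69424340-69586075, minus strand, GRCm38), had opposite kidney differences in the 2 designs, at 6.22 with lncRNA probes and -14.36 with splice junction probes. It had 4909 in kidney against 19.1, 38.6 and 361 in the first and was listed at 0 against 12813, 15674 and 46589.6 in the second. The difference between the designs was not tested. Myh6, Ttn and Plekha3 were listed at 0 in the same way in the splice junction library of heart.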

How the results depend on the processing

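The kidney-high and kidney-low counts of 651 and 275 changed with the settings as follows. A pseudocount of 10 gave 165 kidney-low models. No filter on low values gave 1106 kidney-high models, and a mean value of at least 50 gave 344. A log2 difference of at least 1 gave 1027 and 526, and of at least 3 gave 91 kidney-low. The highest of the comparison tissues in place of their mean gave 359 and 433, so that 45.3% of calls were high, beside 70.3%, a shift that follows from its construction, which tightens the first rule and loosens the second. The lncRNA design alone gave 1909 and 1005, and the splice junction design alone 1282 and 887. Leaving out 1 comparison tissue gave 728 to 922 kidney-high and 402 to 450 kidney-low models. Scaling to total fragments without spike-ins moved the median lncRNA difference of tested models from -0.07 to 0.19, with 766 and 213 called and 639 of the kidney-high models shared. The count above all 4 brain tissues, 539, was 817 without the filter, 306 at a mean of at least 50, 315 against the highest comparison tissue, 1230 in the lncRNA design alone and 986 in the splice junction design alone, and ranged from 542 to 786 with a tissue left out. Isoform calls rose from 0 to 1 at 30 percentage points and to 4 and 25 in the lncRNA and splice junction designs alone, and stayed at 0 with any 1 comparison tissue left out. Of 3580 values of 239 named genes under alternatives, 370 moved beyond counting error and 0 reversed a called sign. A called model lies on 1 side of each comparison library in both designs, so most alternatives could not reverse it. The 0 is therefore not read as a sign of stability. The settings for the brain count, the single-design isoform calls and the isoform calls without heart or liver were chosen after seeing the data. No paired analysis was possible because each tissue has 1 library per design and the results come from no test. Depth limits low models of the lncRNA design, where 1 fragment is worth 1.14 to 4.77 in these libraries.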

Other observations

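Igkc and Igha were among the kidney-high models. Igkc, the kappa light chain constant gene, was at 226 against 33.4, 12.9 and 113 in the lncRNA design and at 83.6 against 1.6, 4.35 and 40.5 in the splice junction design. Igha, the constant gene of IgA, was at 16553 against 2490.0, 1173 and 2074 and at 5124 against 746, 497 and 3899.6. The 4 models of the B lymphocyte list were below the filter, and their summed splice junction value was 60.8 in kidney against 132, 34.8 and 51.2. These genes were chosen after their values were seen.

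The urothelial genes Upk1a and Upk1b were higher in the library labelled testis (688 and 1328) than in kidney (191 and 275) in the splice junction design, whereas Upk3a was at 132 in kidney against 3.21, 4.35 and 1.07. Of the 6 genes of that list, 3 were highest in kidney and 2 in the library labelled testis in that design. All 6 were below the filter.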
